A study of Mus musculus with 30 samples.

Results

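The genes described here are 8 members of the machinery by which a macrophage makes, senses and exports cholesterol, chosen by name out of the 54146 genes in the count table: Ch25h, Hmgcs1, Sqle, Idi1, Insig1, Srebf2, Abca1 and Abcg1. They were measured in J774A.1, a mouse macrophage-like tumour line, by polyadenylated RNA-seq of 30 libraries. 3 clones (WT1, WT2 and WT3) were grown from single wild-type cells, and 2 clones (KO1 and KO2) carried a homozygous CRISPR deletion of B2_Mm2.Dicer1, a B2 SINE element in the first intron of Dicer1. Each clone was left untreated (UT) or given 100 ng/mL IFNG for 4 h, with 3 libraries for each clone and treatment. The KO clones had been electroporated with Cas9 and guide RNAs and the WT clones had not, so the deletion and the editing procedure cannot be told apart, and the 3 libraries of a clone are repeats of that clone, not further edited lines.

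Cells build cholesterol from acetyl-CoA along the mevalonate pathway. When sterol in the endoplasmic reticulum is low, SCAP carries SREBP2, the product of Srebf2, to the Golgi, where proteases release a transcription factor that turns on the synthesis enzymes, and when sterol is high, INSIG proteins hold the complex back. Ch25h makes 25-hydroxycholesterol, an oxysterol that promotes INSIG binding, and in macrophages it is known as an interferon-stimulated gene. Oxysterols also activate the LXR nuclear receptors, which turn on Abca1 and Abcg1, the transporters that pass cholesterol out to apolipoprotein A-I and to HDL.

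Stretches upstream of 3 members are shown because each holds, in capitals, the kind of element by which the pathway is known to act on them: the core of a sterol regulatory element in Hmgcs1 and Srebf2, and in Abca1 a paired LXR element, read on the opposite strand. They are RefSeq sequences of build GRCm38.p6, given 5′ to 3′ on the strand of the gene and ending before its start.

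Hmgcs1 (chr13:119690154-119690281, plus strand): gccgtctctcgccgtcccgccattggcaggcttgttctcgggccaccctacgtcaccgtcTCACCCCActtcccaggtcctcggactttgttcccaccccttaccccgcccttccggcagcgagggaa
Srebf2 (chr15:82147047-82147174, plus strand): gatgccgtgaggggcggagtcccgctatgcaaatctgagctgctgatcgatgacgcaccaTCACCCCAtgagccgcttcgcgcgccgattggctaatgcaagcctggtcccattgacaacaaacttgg
Abca1 (chr4:53159896-53160022, minus strand): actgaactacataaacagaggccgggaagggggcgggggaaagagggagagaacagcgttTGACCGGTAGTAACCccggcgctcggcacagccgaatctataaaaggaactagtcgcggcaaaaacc

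The Hmgcs1 core began 137 bases and the Srebf2 core 162 bases before the RefSeq start, and the Abca1 element began 67 bases before it. For Hmgcs1 and Srebf2 these starts are not the gene starts of the count table given further on, and for Abca1 the start is the same. Windows from 250 bases before to 50 bases after the start were on hand for 6 of the 8 genes (Ch25h, Hmgcs1, Idi1, Insig1, Srebf2 and Abca1), and both strands were searched. The sterol element core TCACNCCA was in 4.36% of all 32851 mouse windows, and among the members in the windows of Hmgcs1 and Srebf2. CCAAT, the box bound by NF-Y, which works beside SREBP2, was in 37.4% of all windows and in those of Hmgcs1, Srebf2, Idi1 and Insig1. The LXR pattern, GGTNA and GGTCA with 5 bases between them, was in 0.207% of all windows and in that of Abca1. The interferon-gamma activation motif (GAS) TTCNNNGAA and the ISRE core GAAANNGAA were in 8.30% and 8.56% of all windows and in none of the 6. A match shows only that these letters lie in the window, and the absence of one says nothing of elements farther away.

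On the mm10 build, the table gives Ch25h at chr19:34473786-34475135 on the minus strand, Hmgcs1 at chr13:119690379-119708260, Idi1 at chr13:8885501-8892451 and Insig1 at chr5:28071363-28078662 on the plus strand, and Sqle at chr15:59315077-59331192 and Srebf2 at chr15:82147181-82205379, also on the plus strand. Abca1 lies at chr4:53030787-53159895 on the minus strand and Abcg1 at chr17:31057698-31115777 on the plus strand. All counts are over the exons of protein-coding genes. Srebf2 shares its span and strand with Mir33 and Gm49502, and Abcg1 with Gm25447, and reads in shared exons were counted for each gene.

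The libraries held 15566122 to 37992642 counted fragments (median 23682133.5). Levels are given as CPM (counts scaled to a common library total) after TMM scaling. In each clone, 3 genes known to respond to IFNG (Irf1, Gbp2 and Gbp2b) rose, with a log2 fold change (log2FC) over all clones between 5.11 for Irf1 and 9.11 for Gbp2b. All 8 macrophage markers examined passed the filter on low counts, with a summed level of 3617 to 6225 CPM, and markers of T, B, endothelial, epithelial and other cell types summed to 0.197 to 2.24 CPM. Exon counts do not measure the intronic deletion itself. Dicer1 stood at 96.7 to 130.2 CPM (median 124) in the 9 untreated WT libraries and 70.5 to 108 CPM (median 87.1) in the 6 untreated KO libraries, and the ranges of WT1 and KO2 overlapped.

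Ch25h had no reads. Its count was 0 in all 30 libraries, in WT and KO clones, with and without IFNG. A count of 0 allows up to 3 counts per library, an upper limit of 0.0808 to 0.190 CPM. For comparison, Irf1 stood at 698 to 959 CPM (median 773) in the 15 IFNG libraries. A count of 0 was not unusual in itself, as 5652 of the 21906 protein-coding genes (25.8%) had none in any library. No fold change or test can be given for Ch25h. Of the other 6 genes listed for oxysterol synthesis and turnover, Cyp46a1 and Cyp7b1 were also at 0 in all 30 libraries and Sult2b1 had 1 count in 1 library. Cyp27a1, which makes 27-hydroxycholesterol, was present at 20.7 to 33.2 CPM (median 27.4), and its log2FC in response to IFNG was -0.02 ± 0.03 (SE, adjusted p-value = 0.728) with the edgeR quasi-likelihood test.

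**Figure D1:**
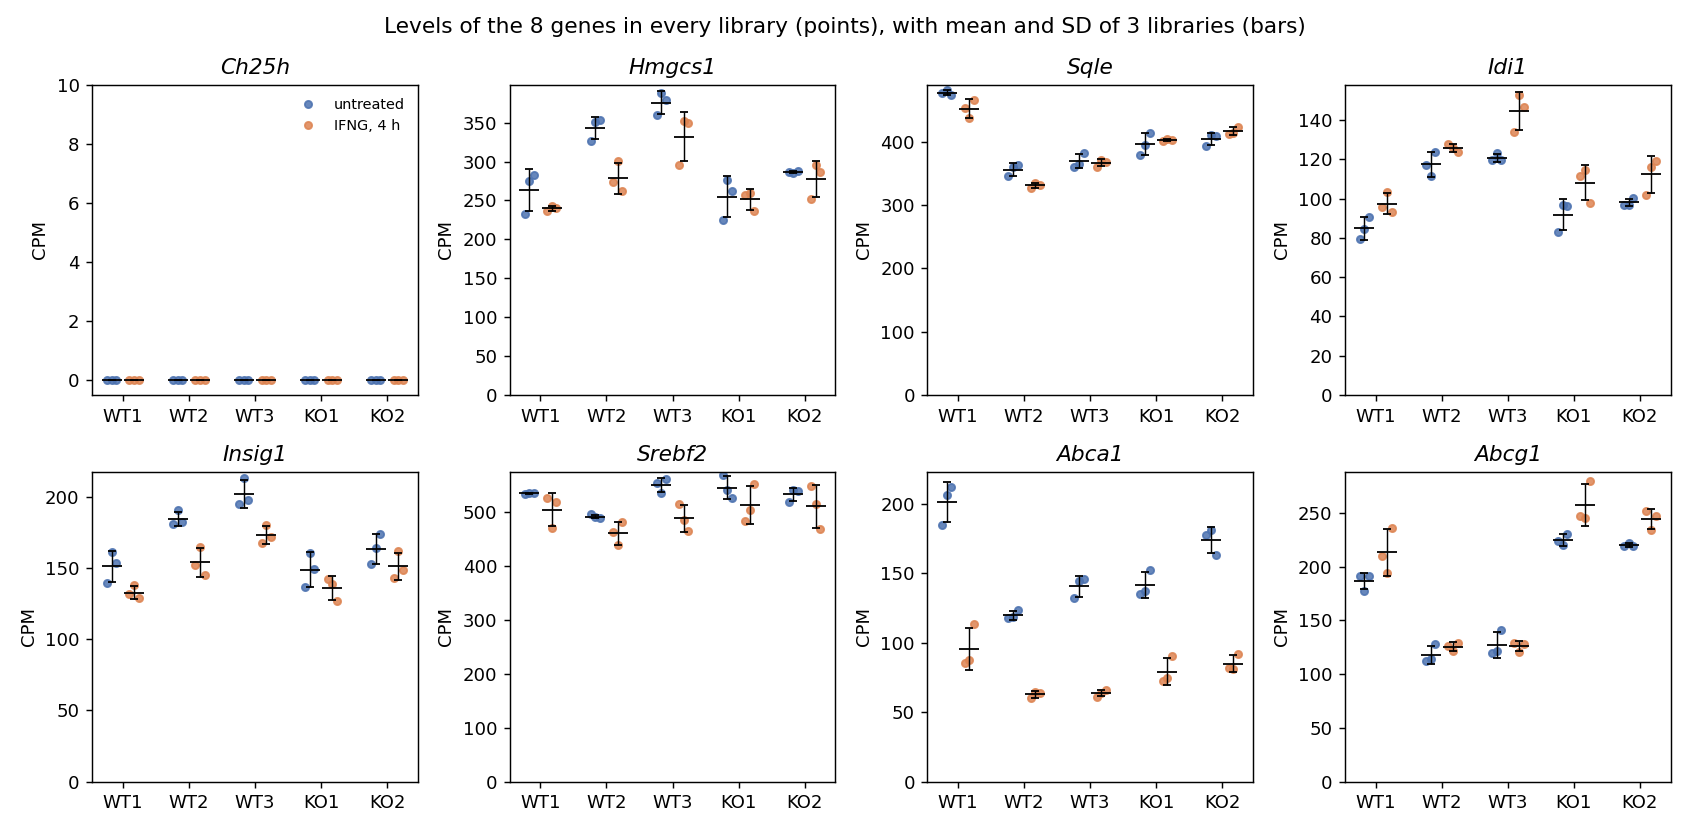
CPM of the 8 genes in every library (y axis, linear from 0, and from just below 0 for Ch25h) for the 5 clones (x axis). Points, 3 per clone and treatment, are blue for untreated and orange for IFNG, and black bars give the mean and SD. Ch25h lies at 0 throughout, the IFNG points of Abca1 lie below the untreated ones in all 5 clones, and Abcg1 is lowest in WT2 and WT3.

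Per kilobase of exon, the order of the 7 expressed members in untreated cells was Srebf2 (74.0 CPM per kb, mean of 15 libraries), Sqle (72.3), Hmgcs1 (66.3), Insig1 (55.0), Abcg1 (43.1), Idi1 (29.3) and Abca1 (14.99). After IFNG Sqle (71.1) and Srebf2 (69.0) changed places, and Abca1 (7.45) remained the lowest of the 7.

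The largest response to IFNG among the members was a fall of Abca1, the transporter that loads lipid-poor apolipoprotein A-I. In WT1, untreated libraries had 185, 206 and 212 CPM and IFNG libraries 85.7, 87.8 and 113 CPM. WT2 went from 118, 118 and 123 to 59.99, 64.7 and 64.0 CPM, and WT3 from 132, 144 and 146 to 61.2, 63.6 and 65.8 CPM. Every IFNG library of the 3 WT clones lay below every untreated library of its own clone. KO1 went from 135, 137 and 152 to 72.3, 74.8 and 90.4 CPM and KO2 from 178, 181 and 163 to 81.8, 81.1 and 91.9 CPM, again without overlap. The log2FC was -1.08 in WT1, -0.91 in WT2, -1.14 in WT3, -0.81 in KO1 and -1.04 in KO2, with standard errors of 0.04 to 0.10. Over all clones it was -1.004 ± 0.04 (SE, adjusted p-value = 1.4e-21), a 2.01-fold fall, and 1.09% of the genes tested had a lower value.

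Abcg1, which exports cholesterol to HDL, moved the other way and by much less. Its level went from 191, 178 and 191 to 209.5, 194 and 236 CPM in WT1, from 112, 114 and 128 to 126, 121 and 129 CPM in WT2 and from 119, 121 and 141 to 129, 121 and 128 CPM in WT3. The ranges overlapped in WT2 and WT3. It went from 224, 219.8 and 230.3 to 247, 245 and 279.7 CPM in KO1 and from 219, 222 and 219 to 251, 234 and 247 CPM in KO2, where all IFNG libraries were higher. Over all clones the log2FC was 0.13 ± 0.03 (SE, adjusted p-value = 5.1e-04). By clone it passed the test in KO1 (0.23) and KO2 (0.15), and it was 0.18 in WT1, 0.11 in WT2 and 0.00 in WT3, where it did not. The KO2 call was lost under 6 of 11 alternatives, among them upper-quartile factors (adjusted p-value = 0.108, edgeR) and leaving out any 1 of 4 libraries, and the KO1 call with library totals (adjusted p-value = 0.0875, edgeR). A call was gained in WT1 without 1 IFNG library (adjusted p-value = 0.0339, edgeR). The same held in WT2 without either of 2 libraries (0.00665 and 0.0438). The difference between KO and WT responses was 0.08 ± 0.06 (SE, adjusted p-value = 0.788), so the responses were not shown to differ.

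Among the SREBP2 targets, Hmgcs1 and Insig1 fell slightly. Hmgcs1 encodes HMG-CoA synthase, an early step of the mevalonate pathway. It went from 232, 275 and 283 to 237, 243 and 240.0 CPM in WT1, from 327, 350.4 and 353 to 274, 300.4 and 262 CPM in WT2 and from 359, 388 and 379.6 to 295, 352 and 349 CPM in WT3. IFNG libraries were all below untreated ones in WT2 and WT3, and 1 untreated WT1 library lay below the IFNG libraries. In KO1 the values were 225, 277 and 263 CPM untreated and 257, 260.2 and 236 CPM after IFNG, and in KO2 287, 285 and 288 and 251, 295 and 286 CPM, with overlap in both. Over all clones the log2FC was -0.14 ± 0.04 (SE, adjusted p-value = 0.00181). It passed the test in WT2 (-0.29, adjusted p-value = 1.9e-05 by edgeR) and WT3 (-0.17, adjusted p-value = 0.0276 by edgeR), and was -0.14, 0.01 and -0.05 in WT1, KO1 and KO2. The WT3 call was lost when any 1 of 3 libraries was left out (adjusted p-values up to 0.117, edgeR), and without the IFNG library at 295 CPM its log2FC was -0.09. WT1 passed the test without its untreated library at 232 CPM (log2FC -0.23, adjusted p-value = 0.0159, edgeR).

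Insig1, itself an SREBP2 target whose product retains SCAP, went from 139.7, 161 and 153 to 132, 138 and 129 CPM in WT1, from 181, 191 and 182 to 152, 165 and 145 CPM in WT2 and from 195, 213 and 198 to 168, 180.1 and 172 CPM in WT3. All IFNG libraries of these 3 clones were below the untreated ones. In KO1 it had 137, 161 and 149.7 CPM untreated and 142, 139 and 127 CPM after IFNG, and in KO2 153, 164 and 174 and 143, 162 and 149 CPM, with overlap. The log2FC was -0.18 ± 0.03 (SE, adjusted p-value = 1.2e-06) over all clones, passing the test in WT1 (-0.20), WT2 (-0.25) and WT3 (-0.21), with -0.10 in KO1 and -0.11 in KO2. The WT1 call was lost with RLE factors (adjusted p-value = 0.0550 by edgeR) and when any 1 of 4 of its 6 libraries was left out (up to 0.271). KO1 passed the test with upper-quartile factors (adjusted p-value = 0.0417, edgeR) and library totals (0.0166), and KO2 with library totals (0.0209).

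Idi1, isopentenyl diphosphate isomerase, rose. It went from 79.3, 84.3 and 90.7 to 95.6, 104 and 93.1 CPM in WT1, from 117, 111 and 124 to 128, 126 and 124 CPM in WT2 and from 119.7, 123 and 119.5 to 134, 153 and 147 CPM in WT3. It went from 82.8, 96.5 and 96.1 to 112, 115 and 97.9 CPM in KO1 and from 96.8, 96.9 and 100.3 to 102, 116 and 119 CPM in KO2. IFNG libraries lay above all untreated ones in 4 clones, WT2 being the exception. The log2FC was 0.20 ± 0.03 (SE, adjusted p-value = 6.8e-07) over all clones and lay between 0.12 in WT2 and 0.27 in WT3, and WT1 was the clone in which it did not pass the test (0.19, adjusted p-value = 0.0670 by edgeR). The call held under all alternatives in WT3. In WT2 it was lost under 7 of 11, among them DESeq2 (adjusted p-value = 0.0896) and upper-quartile factors (0.199), in KO2 under 5 of 11, with adjusted p-values up to 0.110 (edgeR), and in KO1 under 2 of 11. WT1 gained the call when 1 IFNG library was left out (adjusted p-value = 0.0181, edgeR).

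Sqle, squalene epoxidase, the first oxygen-requiring step, had a log2FC of -0.02 ± 0.02 (SE, adjusted p-value = 0.298) over all clones. It went from 478, 482 and 474 to 454, 437 and 467 CPM in WT1 and from 345, 361 and 363 to 327, 336 and 331 CPM in WT2, in both without overlap, and only the change in WT2 passed the test (-0.09, adjusted p-value = 0.0351 by edgeR). That call was lost when any 1 of 3 of the 6 WT2 libraries was left out (adjusted p-values up to 0.137, edgeR). In WT3 (361, 365 and 382 CPM untreated, 361, 372 and 368 CPM after IFNG) and KO1 (379, 396 and 415 and 402, 405 and 403 CPM) the ranges overlapped. KO2 had 394, 410.2 and 409 CPM untreated and 413, 414 and 424 CPM after IFNG, without overlap. Srebf2, the regulator itself, stood at 489 to 569 CPM (median 536) in the 15 untreated and 439 to 552 CPM (median 485) in the 15 IFNG libraries. Its log2FC was -0.10 ± 0.02 (SE, adjusted p-value = 5.0e-04) over all clones, and by clone it passed the test in WT3 (-0.16). WT2 also passed under 3 of 11 alternatives (adjusted p-values down to 0.00719, edgeR), and KO1 with library totals (0.0334).

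Of the 7 members with reads, Idi1 and Abcg1 were called higher over all clones, against 24.9% of all genes tested, and Hmgcs1, Insig1, Srebf2 and Abca1 lower, against 28.3%. With upper-quartile factors or library totals in place of TMM, Sqle was called too (log2FC -0.06 and -0.08), and with library totals 31% rather than 46.8% of all calls were higher. By clone, calls were 2 lower in WT1, 1 higher and 4 lower in WT2 and in WT3, and 2 higher and 1 lower in KO1 and in KO2. The shares of all genes called higher and lower were 11.8% and 9.47% in WT1, 17.4% and 17% in WT2, 18.6% and 17.5% in WT3, 16.2% and 13.2% in KO1, and 13.9% and 13.2% in KO2. Apart from Abca1, the members' changes over all clones were at most 0.20 on the log2 scale in size.

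**Figure D2:**
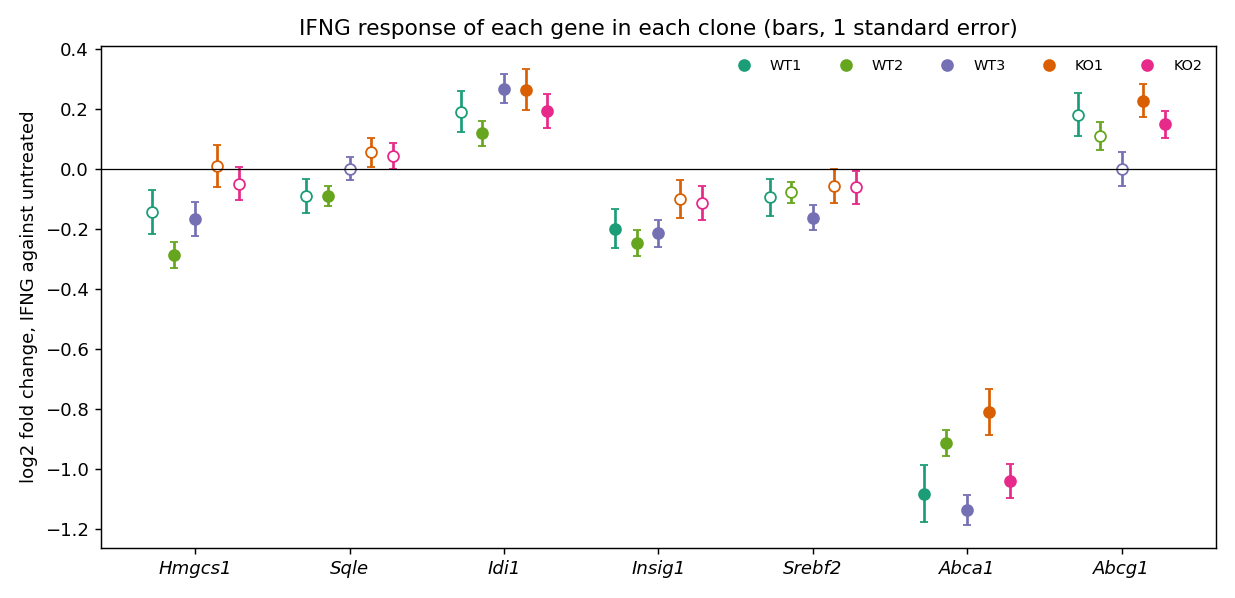
log2FC of 7 members (x axis) after IFNG in each clone (y axis; colours), with bars of 1 standard error, filled where the edgeR adjusted p-value was below 0.05. Abca1 lies between -0.81 and -1.14 in the 5 clones, and the other members between -0.29 and 0.27.

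The deletion was then set against the IFNG response. The response of KO clones minus that of WT clones was 0.17 for Hmgcs1 (95% interval 0.03 to 0.31, adjusted p-value = 0.365 by edgeR), 0.10 for Sqle (0.03 to 0.17), 0.10 for Insig1 (-0.01 to 0.22), 0.11 for Abca1 (-0.05 to 0.27), 0.04 for Srebf2 (-0.06 to 0.14) and 0.03 for Idi1 (-0.10 to 0.15). None of the 7 passed the test, against 1.02% of all genes, with 2 (Hmgcs1 and Sqle) at an unadjusted p-value below 0.05. DESeq2 called Sqle (adjusted p-value = 0.0377), and edgeR without a filter on low counts called Hmgcs1 (adjusted p-value = 0.0314). The estimates fell above 0 for all 7, except that Idi1 turned below 0 without WT2, without KO1 or with library totals. With the clone as the unit, the responses of Insig1 were -0.19, -0.26 and -0.22 in WT and -0.13 and -0.11 in KO clones, which did not overlap, and the two-sided exact permutation p-value of 0.1 is the smallest that 3 against 2 clones allow. The clones of Hmgcs1 (-0.13, -0.30 and -0.18 in WT, -0.02 and -0.05 in KO) and Sqle (-0.08, -0.11 and -0.01 in WT, 0.03 and 0.04 in KO) did not overlap either, with an exact permutation p-value of 0.2, and it was 0.4 for Abca1 and Abcg1, 0.5 for Srebf2 and 0.9 for Idi1. How many of all genes separate WT from KO clones in this way was not counted. No share can therefore be set beside Insig1, Hmgcs1 and Sqle, and their separation is a description only. A test for any difference of response among the 5 clones called none of the 7, against 3.68% of all genes, and Sqle alone had an unadjusted p-value below 0.05. DESeq2 called Sqle there and edgeR without the count filter called Abca1.

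The clones were then compared in their levels. In untreated cells all 7 members differed among the 5 clones, against 73.2% of all genes, with adjusted p-values from 6.1e-13 for Abcg1 to 0.00333 for Srebf2 by edgeR. Abcg1 had the widest spread, 1.90-fold between the highest and lowest clone mean, and Srebf2 the narrowest, 1.12-fold, which did not pass the test without WT2 (adjusted p-value = 0.677 by edgeR). The mean of Hmgcs1 in untreated cells was 255 ± 26.6 CPM (SD, n = 3) in KO1, 263 ± 27.2 in WT1, 287 ± 1.29 in KO2, 343 ± 14.5 in WT2 and 376 ± 14.7 in WT3, in rising order, and only KO1 and WT1 overlapped as neighbours. Insig1 had the same order, from 149 ± 12.1 in KO1 to 202 ± 9.77 CPM in WT3, with KO1, WT1 and KO2 overlapping. For Idi1 the order was WT1 (84.8 ± 5.73 CPM), KO1, KO2, WT2 and WT3 (121 ± 1.98 CPM), with overlap between WT1 and KO1 and between WT2 and WT3. These 3 SREBP2 targets were highest in WT2 and WT3.

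Sqle, a target of the same factor, was ordered otherwise. WT2 (356 ± 9.61 CPM) and WT3 (369 ± 11.4) were lowest, KO1 (396 ± 17.8) and KO2 (405 ± 8.84) followed, each overlapping its neighbour, and WT1 (478 ± 4.07) stood above all. Abca1 rose from WT2 (119.7 ± 3.23 CPM) through WT3 (141 ± 7.55), KO1 (142 ± 9.41) and KO2 (174 ± 9.25) to WT1 (201 ± 14.4), with overlap between WT3 and KO1. Abcg1 rose from WT2 (118 ± 8.55 CPM) and WT3 (127 ± 12.1), which overlapped, through WT1 (187 ± 7.71) to KO2 (220.0 ± 1.76) and KO1 (225 ± 5.34), which also overlapped.

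Between KO and WT clones, Abcg1 was the member called. Its 6 untreated KO libraries (219 to 230.3 CPM, median 221) lay above the 9 untreated WT libraries (112 to 191 CPM, median 128), with a log2FC of 0.62 ± 0.12 (SE, adjusted p-value = 0.00133). After IFNG it was 234 to 279.7 CPM (median 247) in KO and 121 to 236 CPM (median 129) in WT libraries, which overlapped, with a log2FC of 0.70 ± 0.15 (SE, adjusted p-value = 0.00238). In untreated cells 12.4% of all genes were called higher and 14.2% lower in KO, and after IFNG 10.9% and 13%. The call was lost with counts summed per clone (adjusted p-value = 0.355 untreated and 0.390 after IFNG, edgeR), where the clone is the unit, and after IFNG without KO1 (adjusted p-value = 0.0544). Summed counts called only 1 of all genes in each of these comparisons. Hmgcs1 had a log2FC of -0.28 ± 0.10 (SE, adjusted p-value = 0.0571) untreated, which DESeq2 (adjusted p-value = 0.0418), upper-quartile factors and library totals put past the threshold.

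This comparison turned on WT1. Without it, 6 of the 7 members were called in untreated cells: Abcg1 (log2FC 0.86), Abca1 (0.28) and Sqle (0.14) higher in KO, and Hmgcs1 (-0.41), Idi1 (-0.33) and Insig1 (-0.31) lower. The same 6 were called after IFNG without WT1, with log2FC of 0.99, 0.37, 0.23, -0.21, -0.30 and -0.19 in that order. The number of all genes called also rose without WT1, from 3690 to 6472 untreated (13886 genes tested with all clones) and from 3258 to 5992 after IFNG (13637 tested). With all clones in, the values of these 5 other than Abcg1 lay between -0.28 and 0.03 untreated and none was called. Macrophage markers differed in both directions in the same comparison: 4 of 8 were higher, 1 was lower and 3 were not called in untreated KO clones. Their log2FC ran from -1.10 to 2.39 (median 0.26). Their summed level was 3729 to 5151 CPM in untreated WT and 5566 to 6225 CPM in untreated KO libraries. The highest of the 8 was Adgre1, which encodes the macrophage antigen F4/80, with a log2FC of 2.39 ± 0.48 (SE, adjusted p-value = 0.00167). With counts summed per clone its adjusted p-value was 0.382 (edgeR). The part of these differences in the result for Abcg1 was not tested.

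**Figure D3:**
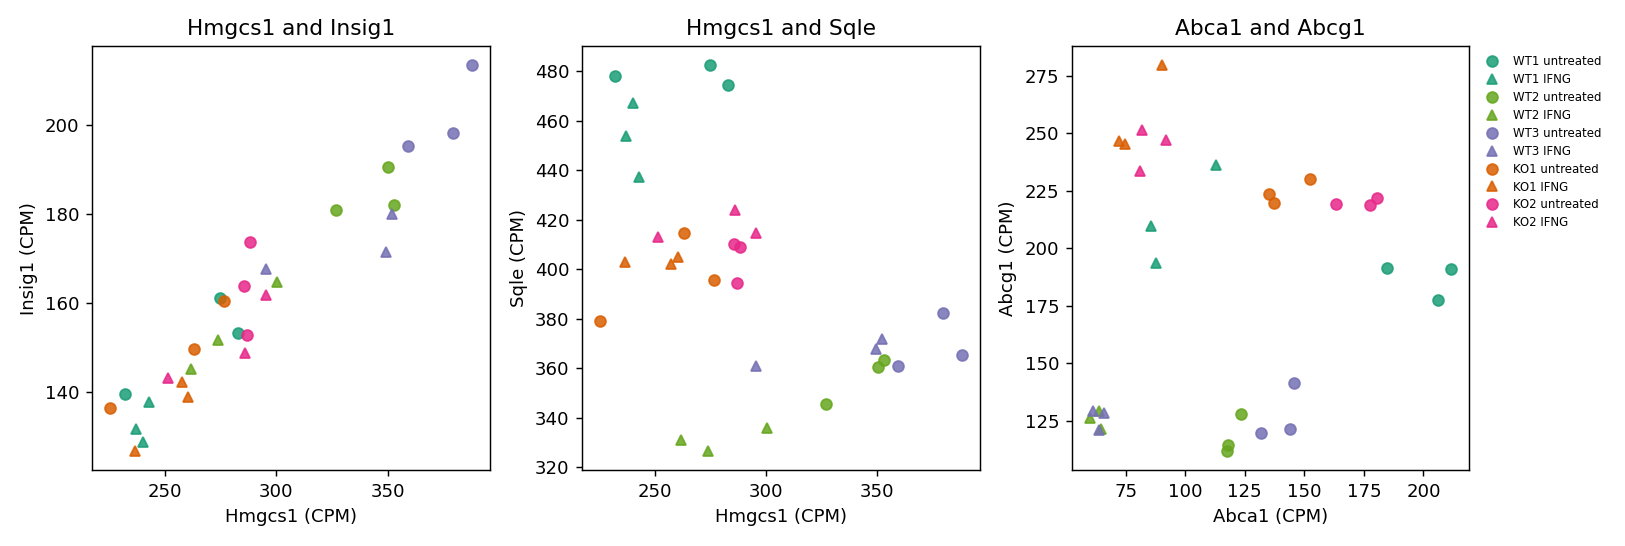
CPM of pairs of members in the 30 libraries (Hmgcs1 against Insig1, Hmgcs1 against Sqle, Abca1 against Abcg1; linear axes that do not start at 0), coloured by clone, with circles for untreated and triangles for IFNG. Hmgcs1 and Insig1 lie along 1 line, Sqle is highest in WT1, and WT2 and WT3 have the lowest Abcg1 at either level of Abca1.

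Hmgcs1 and Insig1 varied together more closely than any other pair of members. Over the 30 libraries, which share clones, treatment and scaling, Pearson's r of log2(CPM + 0.5) was 0.952, and it was 0.795 for the deviations of each library from its own clone and treatment mean. The deviations of Hmgcs1 and Idi1 had r = 0.794, those of Idi1 and Insig1 0.638, and those of Hmgcs1 and Sqle 0.423, while over the 30 libraries Hmgcs1 and Sqle had r = -0.509. The lowest untreated library of WT1 in Hmgcs1 (232 CPM) was also its lowest in Insig1 (139.7 CPM) and Idi1 (79.3 CPM), and the same held for KO1 (225, 137 and 82.8 CPM). In the deviations Srebf2 ran against them, with r = -0.601 for Hmgcs1, -0.702 for Idi1 and -0.459 for Insig1. Over the 30 libraries its r was -0.137 with Hmgcs1, -0.593 with Idi1 and 0.0007 with Insig1. Within groups the SD was 0.10 on the log2 scale for Hmgcs1 and 0.04 for Sqle. Among the 12345 genes averaging 1 CPM or more, those most like Hmgcs1 over the 30 libraries were Insig1 (r = 0.952), Msmo1 (0.927), a sterol synthesis enzyme, and Zfx (0.925). Those most like Insig1 were Hmgcs1, Fam3c (0.914) and Thap12 (0.911), and those most like Srebf2 were Cic (0.885), Srebf1 (0.881) and Chpf2 (0.871). For Idi1 they were Selenot (0.967), Larp4 (0.957) and Ppp3cb (0.948), and for Sqle Maml3 (0.942), Ccnd2 (0.939) and P4hb (0.928). For Abca1 they were Mfhas1 (0.973), Plxna2 (0.969) and C5ar1 (0.967), and for Abcg1 Bcl2l1 (0.984), Emilin2 (0.969) and Gas7 (0.969). Ch25h, at 0 throughout, has no such pattern.

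The members' neighbours in the pathway were taken from lists by function, and values in parentheses are log2FC ± SE over all clones with adjusted p-values by edgeR. Of 21 enzymes of cholesterol synthesis, Hmgcs1, Sqle and Idi1 among them, 20 were tested, and 5 rose and 7 fell over all clones, against 24.9% and 28.3% of all genes tested, shares that hold for the lists that follow too, with a median log2FC of -0.03 beside -0.01 over all genes. Ebp (sterol isomerase, log2FC 0.46 ± 0.03, adjusted p-value = 2.4e-17) and Pmvk (phosphomevalonate kinase, 0.40 ± 0.03, adjusted p-value = 1.8e-15) rose, and Mvd (mevalonate diphosphate decarboxylase, -0.60 ± 0.04, adjusted p-value = 8.9e-17) and Dhcr7 (7-dehydrocholesterol reductase, -0.15 ± 0.03, adjusted p-value = 6.8e-06) fell. Ebp stood at 28.01 to 34.3 CPM (median 31.6) in the 15 untreated and 40.5 to 46.7 CPM (median 42.7) in the 15 IFNG libraries, which did not overlap, and Mvd at 48.5 to 72.8 CPM (median 56.2) and 27.8 to 49.0 CPM (median 40.0). With library totals 13 of the 20 were called lower instead of 7, and 5 higher. Calls over all genes shifted too, to 8640 with 2678 of them higher, from 7727 with 3613 higher under TMM.

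Of the 11 genes of SREBP control, 1 rose and 6 fell (median log2FC -0.06). Rnf139, an ubiquitin ligase of the INSIG complex, was the one that rose (0.30 ± 0.03, adjusted p-value = 2.8e-11), and Rnf145, another ligase (-0.25 ± 0.03, adjusted p-value = 3.5e-09), and Srebf1, which encodes SREBP1 (-0.24 ± 0.03, adjusted p-value = 1.8e-08), fell with Insig1 and Srebf2. Of 13 tested genes of uptake, trafficking and storage, 4 rose and 8 fell (median -0.10). Mylip, an ubiquitin ligase gene, fell (-0.35 ± 0.04, adjusted p-value = 1.9e-08). Stard3 rose (0.19 ± 0.04, adjusted p-value = 6.7e-05), and Npc1, which moves cholesterol out of the lysosome, fell (-0.31 ± 0.02, adjusted p-value = 2.7e-15). Of 3 tested oxysterol genes, Hsd3b7 rose (0.58 ± 0.05, adjusted p-value = 4.4e-13) and Gpr183, the receptor for dihydroxylated oxysterols made from 25-hydroxycholesterol, fell (-0.90 ± 0.06, adjusted p-value = 1.1e-15).

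Of the 11 LXR and efflux genes, 3 rose, Abcg1 among them, 4 fell, Abca1 among them, and 4 were not called (median -0.12). Arl4c fell (-1.63 ± 0.04, adjusted p-value = 9.1e-28), with 128 to 156 CPM (median 132) in untreated and 37.0 to 70.1 CPM (median 42.9) in IFNG libraries. Rxra, which encodes the partner of LXR, fell too (-0.71 ± 0.03, adjusted p-value = 1.4e-20). Nr1h3, encoding LXR alpha, rose (0.72 ± 0.08, adjusted p-value = 2.7e-09), with 0.227 to 2.60 CPM (median 1.49) in untreated and 0.244 to 4.68 CPM (median 2.24) in IFNG libraries. Nr1h2, encoding LXR beta, had a log2FC of 0.10 ± 0.03 (SE, adjusted p-value = 0.00513), and its call was lost with upper-quartile factors or library totals. All 10 tested genes of fatty acid synthesis fell, with TMM, RLE and upper-quartile factors and with library totals alike (median -0.19), among them Fasn (-0.26 ± 0.03, adjusted p-value = 8.9e-10) and Scd2 (-0.25 ± 0.03, adjusted p-value = 8.9e-11).

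**Figure D4:**
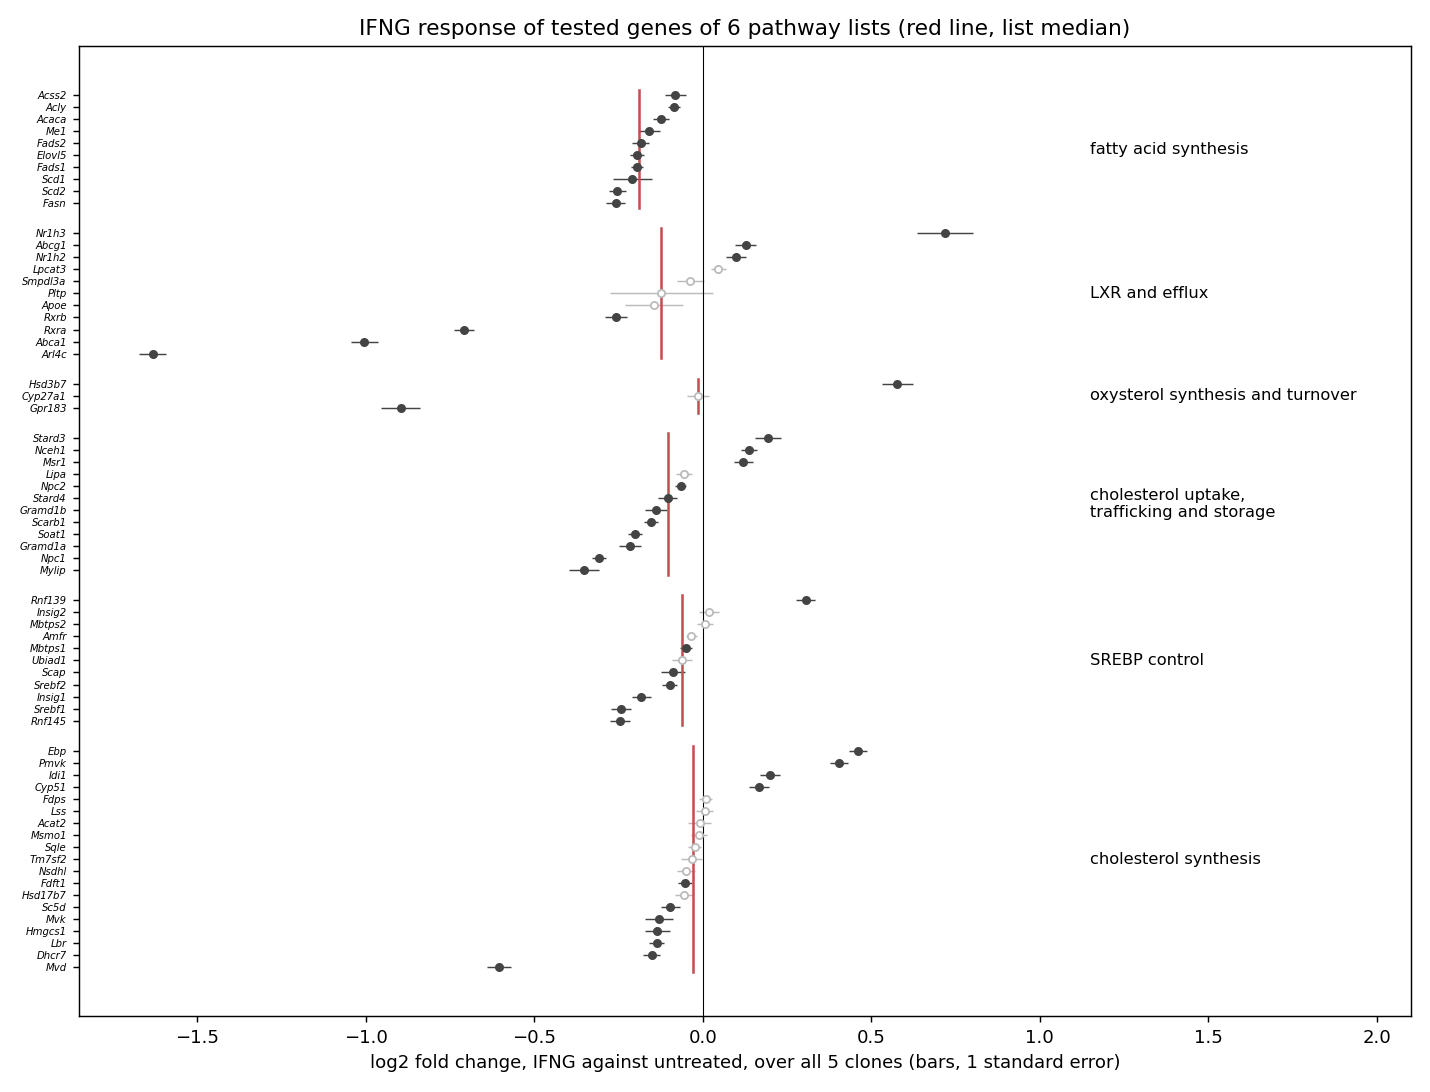
log2FC after IFNG over all 5 clones (x axis) with bars of 1 standard error for tested genes of 6 lists (y axis, without genes not reported here), filled where the edgeR adjusted p-value was below 0.05, with the median of each whole list as a red line. Genes of cholesterol synthesis lie on both sides of 0, all 10 of fatty acid synthesis lie below it, and Arl4c and Abca1 have the lowest values.

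The deletion was set against the same lists. KO and WT clones were found to differ in their IFNG response for 1 of the 68 genes tested in the 6 lists, the endoplasmic reticulum sterol transporter gene Gramd1b, against 1.02% of all genes. That call was lost with library totals (adjusted p-value = 0.0829, edgeR) and with counts summed per clone (adjusted p-value = 0.588, edgeR), where 2 of all genes were called. In untreated cells 1 of 20 cholesterol synthesis genes was called higher in KO clones and 5 lower, against 12.4% and 14.2% of all genes (median log2FC -0.15 beside 0.00 over all genes), and after IFNG none was called higher and 4 lower, against 10.9% and 13% (median -0.09). With counts summed per clone, edgeR called 0 genes of the 6 lists in either comparison. Only 1 of all genes was called in each, so this setting could show little about the lists. Mbtps2, the site 2 protease that releases SREBP, is named after its values were seen: its log2FC between KO and WT clones was 0.66 ± 0.16 (SE, adjusted p-value = 0.00682) untreated and 0.64 ± 0.16 (SE, adjusted p-value = 0.00795) after IFNG. With counts summed per clone its adjusted p-values were 0.444 and 0.448 (edgeR), and its untreated WT libraries ranged from 41.4 to 77.2 CPM.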

How the data were processed

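RNA-seq counts of 30 J774A.1 libraries were analysed. The authors trimmed reads with BBDuk, aligned them to mm10 (HISAT2 2.1.0, SAMtools 1.10) and deposited raw counts per gene from featureCounts 1.6.2, reverse stranded over exons of GENCODE vM18 per the file headers, with a fragment counted for each gene it overlaps. Here 1 table of all libraries was used and 13 overlapping tables were not. Columns named for clones wtc1 and wtc3 were taken as WT2 and WT3 because the tables named for WT2 and WT3 hold those columns, and the labels do not pair these names. Columns carry no replicate number. The methods say that technical replicates were merged, and no source used here says for these libraries whether those of a clone came from separate cultures, so p-values measure the spread between libraries, which may be technical. The labels give 200 or 500 ng of input RNA and a pair of adapter kinds without saying which library had which, so this could not be checked.

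Counts were tested with edgeR 4.0.16 (R 4.3.3; TMM factors, filterByExpr, quasi-likelihood F test, Benjamini-Hochberg adjustment over all genes tested, threshold 0.05), with the clone as a term in IFNG comparisons that pooled clones and genotype alone in KO against WT comparisons, where libraries of a clone count as separate. The scripts were tested on simulated data. Alternatives were DESeq2 1.42.0, RLE factors, no count filter, no clone term, leaving out each library or clone and counts summed per clone. Upper-quartile factors and library totals alone were chosen after seeing the data. The members and lists were chosen with earlier results of these data known, and motif letters were set after the files were seen. The members were named throughout, and from each other list up to 2 called genes in each direction with the largest log2FC over all clones, where some group averaged 1 CPM or more, besides the 3 genes most correlated with each member. Sequences were read from RefSeq. Some genes of the lists are counted but not reported here by name. The upper limit given for Ch25h covers counting error only, and was set by library totals of 15566122 to 37992642 after TMM scaling. The intervals of differences in response came from standard errors of the edgeR fit, and so include the spread between libraries.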

Additional observations from a re-analysis of the deposited data

Results flagged for a closer look

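The response to IFNG differed between groups, by the edgeR test of the difference itself, for 6 of the genes read beside the members, and for none of the members. The response of KO minus that of WT clones was 0.85 for Gbp2b (adjusted p-value = 0.000172), 0.55 for Gbp2 (adjusted p-value = 0.0166), 0.22 for the sterol transporter gene Gramd1b (adjusted p-value = 0.0388) and -0.36 for Dicer1 (adjusted p-value = 5.7e-05), on the log2 scale. With counts summed per clone none of these was called by edgeR, with adjusted p-values of 0.240 for Gbp2b, 0.643 for Gbp2, 0.588 for Gramd1b and 0.133 for Dicer1. Only 2 of all genes were called under that setting. Among the 5 clones, the F of edgeR for a difference of response was 23.2 for Gbp2b, 14.2 for Gbp2, 15.9 for Dicer1, 6.99 for Irf1, 5.79 for Gramd1b and 14.4 for Gpr183, all with adjusted p-values below the threshold. By clone, the log2FC of Gramd1b was -0.14, -0.24, -0.31, 0.01 and 0.00 and that of Gpr183 -0.61, -1.18, -1.33, -0.84 and -0.70 in WT1, WT2, WT3, KO1 and KO2.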

How the results depend on the processing

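No paired analysis was possible because the count columns carry no replicate number, so no fit with a replicate block could be made. Of 840 alternative values of the members, 739 kept direction and side of the threshold, 30 passed it newly, 38 no longer passed it and 33 changed sign. The cause was not tested. Members called went from 2 to 1 in WT1 with RLE factors, from 3 to 1 in KO2 with upper-quartile factors, from 0 to 1 with DESeq2 or no count filter for both tests of a difference in response, and from 1 to 2 in untreated KO against WT clones with DESeq2, upper-quartile factors or library totals. With counts summed per clone 0 were called in KO against WT clones, untreated and after IFNG, beside 1 of all genes in each. Leaving out 1 library gave 1 to 3 called in WT1, 3 to 6 in WT2, 4 to 5 in WT3, 2 to 3 in KO1 and 1 to 3 in KO2. Leaving out 1 clone gave 6 over all clones, 0 for both differences in response, 1 to 6 in KO against WT clones untreated, 0 to 6 after IFNG, and 6 to 7 among untreated clones.

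Small changes turned sign. Abcg1 in WT3 was 0.0022 with RLE factors. Sqle in WT3 was -0.014 without the filter, -0.045 with upper-quartile factors and -0.057 with library totals. Hmgcs1 in KO1 was -0.0083, -0.062 and -0.095 under these settings in the same order. With upper-quartile factors and library totals Sqle was -0.016 and -0.050 in KO1 and -0.0057 and -0.029 in KO2. With library totals Idi1 was -0.0032 for KO minus WT responses and Dicer1 -0.0047 in KO1. Without the filter Sqle was 0.0021 in untreated KO against WT clones. With single libraries left out, the range was -0.014 to 0.021 for Sqle and -0.043 to 0.073 for Abcg1 in WT3, and -0.076 to 0.070 in KO1 and -0.10 to 0.021 in KO2 for Hmgcs1. With 1 clone left out, Idi1 ran from -0.014 to 0.065 for KO minus WT responses, and in KO against WT clones Sqle ran from -0.086 to 0.14, Srebf2 from -0.013 to 0.068 and Abca1 from -0.13 to 0.28 untreated, and Hmgcs1 from -0.21 to 0.028 and Insig1 from -0.19 to 0.0018 after IFNG.

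Over all genes, the count called over all clones went from 7727 to 4687 without the clone term, where the calls of Hmgcs1 and Abcg1 were lost (adjusted p-values 0.162 and 0.547, edgeR). KO minus WT responses went from 150 to 570 without WT1, 384 without the filter, 35 without WT2, 73 without WT3, 21 without KO1 and 2 with summed counts, and responses among clones from 547 to 919 without the filter and 319 without WT3. KO against WT clones went from 3690 to 6472 without WT1, 1674 without KO1 and 1 with summed counts untreated, and from 3258 to 5992, 1411 and 1 after IFNG. With upper-quartile factors 35.8% of calls over all clones were higher, against 46.8% with TMM. Library totals moved the median of all genes in KO1 to -0.10. Ch25h, at 0 counts, allowed no test under any setting.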
